A study of Mus musculus with 99 samples.

Results

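Expression of 9 interferon-stimulated genes (Irf7, Isg15, Ifit1, Ifit3, Stat2, Bst2, Oasl2, Usp18 and Rtp4) was examined in bulk RNA sequencing libraries from the brains of juvenile mice with and without perinatal fentanyl. The genes were chosen as a named set with earlier results of these data known. All 9 were found among the 55335 Ensembl gene identifiers of the count files through the gene symbols of GENCODE release 21 for mouse. Wildtype C57BL/6 dams had drunk water with fentanyl, an opioid, at 10 µg/ml from embryonic day 0 until weaning, and the comparison groups are labelled water. At a juvenile age that the labels do not give in days, tissue punches were taken from 5 areas of female and male offspring: the nucleus accumbens (NAc), the ventral tegmental area (VTA), the prelimbic cortex (PrL), the ventrobasal thalamus (VBT) and the S1 area of somatosensory cortex (S1). Region, sex and treatment gave 20 groups. Of the 99 libraries, 98 were used, with 5 libraries in each group except 4 for VTA male water and 4 for S1 male water.

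Type I interferons bind the receptor pair Ifnar1 and Ifnar2. The kinases Jak1 and Tyk2 then phosphorylate Stat2, which joins Irf9 in a complex that binds interferon-stimulated response elements in the promoters of target genes. In the healthy brain a low tonic signal of this kind is known, and microglia, endothelium, astrocytes and neurons can all respond to interferon. Among the 9 genes, Stat2 and Irf7 are transcription factors of the pathway, and Irf7 is known for amplifying interferon production. Isg15 is a ubiquitin-like modifier, and Usp18 removes it from proteins and restrains the receptor. Ifit1 and Ifit3 are partners that bind foreign RNA, and Oasl2 belongs to the oligoadenylate synthetase family. Bst2, also called tetherin, holds budding virus particles at the cell membrane. Rtp4 is a receptor transporter protein known to bind viral RNA and to act as a chaperone of opioid receptors.

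Promoter windows are shown because the response element is the known point at which the pathway meets these genes, and because the windows differ in whether they hold its core letters. Each window runs from 250 bases before the transcription start to 50 bases after it, 5′ to 3′ on the strand of the gene, from the RefSeq table for GRCm38.p6, which held 7 of the 9 genes. Capitals mark matches to GAAANNGAAA on either strand, overlapping matches included. A run of overlapping matches appears as one block.
Isg15, chr4:156200769-156201068, minus strand: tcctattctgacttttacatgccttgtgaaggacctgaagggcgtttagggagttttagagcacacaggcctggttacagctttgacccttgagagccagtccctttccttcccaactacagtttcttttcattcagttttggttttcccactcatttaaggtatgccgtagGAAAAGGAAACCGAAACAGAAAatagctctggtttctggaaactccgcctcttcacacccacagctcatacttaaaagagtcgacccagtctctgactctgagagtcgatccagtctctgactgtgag
Ifit1, chr19:34640639-34640938, plus strand: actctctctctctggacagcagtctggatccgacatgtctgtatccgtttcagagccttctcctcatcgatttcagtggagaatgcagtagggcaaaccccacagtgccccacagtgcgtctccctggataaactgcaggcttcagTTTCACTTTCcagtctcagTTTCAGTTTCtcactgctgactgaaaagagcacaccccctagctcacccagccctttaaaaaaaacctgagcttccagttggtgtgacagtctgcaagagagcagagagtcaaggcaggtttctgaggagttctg
Ifit3, chr19:34583279-34583578, plus strand: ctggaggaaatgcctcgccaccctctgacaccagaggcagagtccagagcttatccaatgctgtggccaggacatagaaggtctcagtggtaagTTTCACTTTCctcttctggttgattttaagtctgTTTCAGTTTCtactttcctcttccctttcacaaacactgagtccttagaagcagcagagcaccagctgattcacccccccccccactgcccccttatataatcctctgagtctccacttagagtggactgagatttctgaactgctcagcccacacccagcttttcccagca
Bst2, chr8:71537423-71537722, minus strand: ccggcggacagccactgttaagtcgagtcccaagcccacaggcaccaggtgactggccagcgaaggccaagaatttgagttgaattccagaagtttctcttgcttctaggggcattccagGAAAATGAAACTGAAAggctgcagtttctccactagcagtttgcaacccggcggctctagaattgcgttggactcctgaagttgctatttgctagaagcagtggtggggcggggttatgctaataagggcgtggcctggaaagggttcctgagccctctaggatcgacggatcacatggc
Stat2, chr10:128270248-128270547, plus strand: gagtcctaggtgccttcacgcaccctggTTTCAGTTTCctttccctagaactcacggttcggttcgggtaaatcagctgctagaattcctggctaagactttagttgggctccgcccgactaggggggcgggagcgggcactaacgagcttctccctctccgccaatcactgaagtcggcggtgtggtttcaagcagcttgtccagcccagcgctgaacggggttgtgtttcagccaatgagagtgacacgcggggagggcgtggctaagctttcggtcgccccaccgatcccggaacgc
Oasl2, chr5:114896684-114896983, plus strand: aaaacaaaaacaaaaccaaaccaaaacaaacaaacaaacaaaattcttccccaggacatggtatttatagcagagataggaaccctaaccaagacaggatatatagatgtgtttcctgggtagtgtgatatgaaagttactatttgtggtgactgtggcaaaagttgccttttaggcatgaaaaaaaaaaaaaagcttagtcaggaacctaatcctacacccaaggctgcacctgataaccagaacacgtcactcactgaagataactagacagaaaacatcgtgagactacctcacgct
Isg15 held 3 overlapping matches, which together spanned positions -78 to -57 from the start. Ifit1 and Ifit3 held 2 separate matches each, Bst2 held 2 overlapping ones and Stat2 held 1, the farthest from the start. Neither Oasl2 nor Irf7 (chr7:141266375-141266674, minus strand) held these letters in this window. The motif was thus in 5 of 7 windows (71.4%), against 1079 of all 27025 genes in the table (3.99%) and 27 of 50 genes (54%) on a list of further interferon-stimulated genes. A match is a description of letters and not of a bound site.

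In GRCm38 the genes lie on 8 chromosomes, and only Ifit1 (chr19:34640871-34650009, plus strand) and Ifit3 (chr19:34583531-34588731, plus strand) share one. Irf7 lies at chr7:141262706-141266481 (minus strand), Isg15 at chr4:156199424-156200818 (minus), Stat2 at chr10:128270559-128292849 (plus) and Bst2 at chr8:71534255-71537456 (minus). Oasl2 lies at chr5:114896936-114912234 (plus), Usp18 at chr6:121245906-121270917 (plus) and Rtp4 at chr16:23520291-23614222 (plus). All are protein-coding and were counted over exons. Ifit3 has a near-identical copy, Ifit3b, with which it can share reads, so its level is uncertain. Irf7 shares 45 exon bases with Phrf1 and Usp18 shares 124 with Gm44148, both on the opposite strand, and Rtp4 shares 296 with Gm45338 on its own strand. Reads in bases shared on opposite strands cannot be told apart where counting did not use strand. Strand cannot separate those shared by Rtp4 and Gm45338.

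The 98 libraries held 23032078 to 52069639 counts assigned to genes (median 36024982) and had counts for 24079 to 27347 genes. At this depth 3 counts, the limit that a count of 0 allows, correspond to 0.0576 to 0.130 counts per 1000000 assigned counts (CPM). The library labelled VTA male water 3 had counts for only 6333 genes and listed all 9 genes at 0. It was left out. Summed markers followed the region labels: VTA markers reached 335 CPM or more in every VTA library and at most 69.3 CPM elsewhere, and thalamus markers reached 1008 CPM or more in VBT and at most 649 CPM elsewhere. Cortex markers were at 1245 CPM or more in S1 and PrL, but reached 1373 CPM in 1 NAc library, and striatum markers were at 1096 CPM or more in NAc and at most 714 CPM elsewhere. The labels do not say that libraries of a group come from separate animals or litters, so p-values measure the spread between these samples, which may be technical. In bulk tissue, fewer cells of a type and less RNA per cell cannot be told apart.

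All 9 genes were detected in all 98 libraries, at low levels for 8 of them. Per kilobase of exon, Stat2 was highest at a mean of 5.06 ± 0.556 CPM per kilobase of exon (RPKM; SD, n = 98 for each gene). Ifit3 followed at 3.20 ± 1.09 RPKM, Bst2 at 3.08 ± 1.06 RPKM and Isg15 at 2.28 ± 0.722 RPKM. Ifit1 lay at 1.13 ± 0.392 RPKM, Rtp4 at 0.964 ± 0.252 RPKM, Oasl2 at 0.731 ± 0.287 RPKM and Irf7 at 0.617 ± 0.177 RPKM. Usp18, the protease that removes Isg15, was lowest at 0.379 ± 0.156 RPKM. Its counts per library ran from 10 to 88, so counting error alone gave a coefficient of variation of 16.4% at its median count of 37. Within groups, the median coefficient of variation was 6.17% for Stat2 and between 20.1% (Bst2) and 28.5% (Usp18) for the other genes. Each of these was larger than the counting error of the gene, which ran from 3.05% for Stat2 to 16.4% for Usp18.

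**Figure D1:**
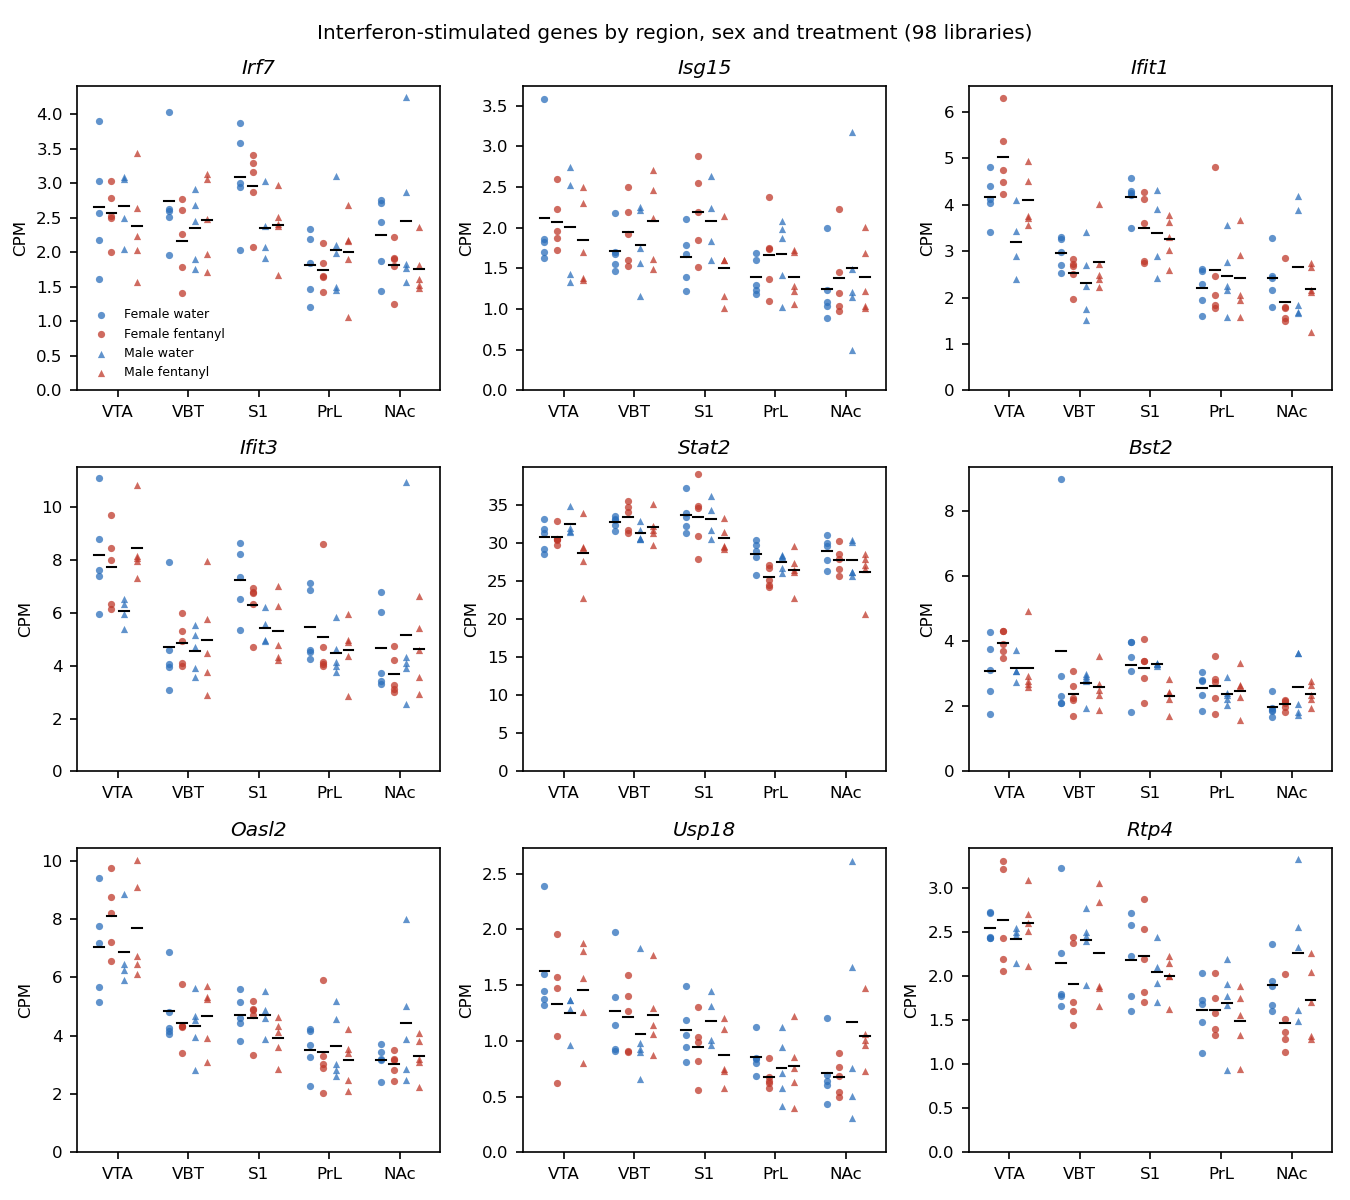
CPM of each of the 9 genes (one panel each, linear axis) in every library by region, with points separated by sex and treatment and black bars at group means. VTA libraries sit highest for Ifit1, Ifit3 and Oasl2, Stat2 varies little, and single libraries such as NAc male water 5 and VBT female water 2 stand above their groups.

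The first question was how the genes differ between regions. In mean CPM, 7 of the 9 genes were highest in VTA and the other 2, Irf7 and Stat2, in S1, while every gene was lowest in PrL or NAc. Regions were compared with edgeR's quasi-likelihood test on 20328 genes, with sex and treatment in the model and Benjamini-Hochberg adjustment, and a gene is called where adjusted p was under 0.05. For all 9 genes the region highest in CPM and the one lowest in CPM differed, by fitted log2 differences from 0.25 (Stat2) to 0.98 (Oasl2). The regions differ in most genes, so these calls do not set the 9 genes apart: VTA and NAc differed in 9 of 9 of them and in 77.3% of all genes tested.

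Among the transcription factors, Irf7 had a lowest, median and highest level of 1.57, 2.52 and 3.91 CPM in VTA, of 1.40, 2.49 and 4.03 CPM in VBT and of 1.67, 2.87 and 3.88 CPM in S1. In PrL these were 1.07, 1.87 and 3.10 CPM, and in NAc 1.25, 1.85 and 4.25 CPM. All 5 ranges overlapped. S1 was above PrL by a log2 difference of 0.49 (SE 0.12, edgeR adjusted p = 0.000193), and of neighbours in the order S1, VTA, VBT, NAc, PrL, only VBT and NAc were called in the fit without a replicate block (0.34, SE 0.11, edgeR adjusted p = 0.00569). Stat2, which carries the signal from the receptor to the nucleus, was at 32.7 ± 2.93 CPM in S1 (SD, n = 19), 32.3 ± 1.60 CPM in VBT (n = 20), 30.5 ± 2.64 CPM in VTA (n = 19), 27.6 ± 2.38 CPM in NAc (n = 20) and 27.0 ± 1.97 CPM in PrL (n = 20). VBT was above VTA by 0.24 (SE 0.03, edgeR adjusted p = 1.77e-10) and VTA above NAc by 0.09 (SE 0.03, edgeR adjusted p = 0.0100), whereas S1 and VBT, and NAc and PrL, did not differ beyond their spread.

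Among the effectors, Oasl2 differed by the most between those regions. Its lowest, median and highest levels were 5.15, 7.16 and 10.0 CPM in VTA, 2.83, 4.32 and 6.86 CPM in VBT, and 2.87, 4.60 and 5.60 CPM in S1. In PrL they were 2.05, 3.29 and 5.91 CPM, and in NAc 2.24, 3.20 and 8.01 CPM. The lowest VTA library lay above the median library of every other region, although the ranges overlapped. VTA exceeded VBT by 0.55 (SE 0.11, edgeR adjusted p = 3.1e-06) and PrL by 0.98 (SE 0.11, edgeR adjusted p = 5.96e-14).

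The RNA-binding partners had the same 2 regions on top. Ifit1 averaged 4.17 ± 0.892 CPM in VTA and 3.59 ± 0.680 CPM in S1 (SD, n = 19 each), against 2.64 ± 0.579 CPM in VBT, 2.42 ± 0.818 CPM in PrL and 2.29 ± 0.788 CPM in NAc (n = 20 each). Ifit3 averaged 7.70 ± 1.61 CPM in VTA and 6.11 ± 1.27 CPM in S1, against 4.92 ± 1.35 CPM in PrL, 4.79 ± 1.37 CPM in VBT and 4.54 ± 1.94 CPM in NAc. The 2 top regions were not called against each other in either gene in the fit without a replicate block. The step below S1 was called for both, at 0.40 toward VBT for Ifit1 (SE 0.12, edgeR adjusted p = 0.00133) and 0.29 toward PrL for Ifit3 (SE 0.12, edgeR adjusted p = 0.0348). VTA exceeded NAc by 0.80 for Ifit1 (SE 0.12, edgeR adjusted p = 2.89e-09) and 0.70 for Ifit3 (SE 0.12, edgeR adjusted p = 1.35e-07).

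The other 4 genes were highest in VTA too. Isg15 averaged 2.01 ± 0.582 CPM in VTA and 1.38 ± 0.596 CPM in NAc, a log2 difference of 0.49 (SE 0.13, edgeR adjusted p = 0.000418). Usp18 averaged 1.43 ± 0.415 CPM in VTA and 0.765 ± 0.220 CPM in PrL (0.76, SE 0.16, edgeR adjusted p = 8.7e-06). Bst2 averaged 3.35 ± 0.789 CPM in VTA and 2.25 ± 0.554 CPM in NAc (0.52, SE 0.12, edgeR adjusted p = 0.000103). For these 3 genes no neighbours in the order of regions were called in the fit without a replicate block. Rtp4, the opioid receptor chaperone, averaged 2.56 ± 0.348 CPM in VTA and 1.61 ± 0.348 CPM in PrL (0.53, SE 0.10, edgeR adjusted p = 6.08e-07), and among its neighbouring regions S1 and NAc differed (0.29, SE 0.10, edgeR adjusted p = 0.00718).

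Counts of calls over the 10 pairs of regions are read against the share of all genes called. In the pairs with VTA, 4 of 9 genes were called against VBT (68.6% of all genes), 3 against S1 (75.6%) and 7 against PrL (77.4%). VBT differed from S1 in 2 of 9 genes (76.6%), from PrL in 6 (78.3%) and from NAc in 8 (78.2%). S1 differed from PrL in 7 of 9 (54.4%) and from NAc in 8 (66.7%). PrL and NAc differed in 0 of 9 by edgeR, with 1 of 9, Bst2, at an unadjusted p under 0.05, where 67.7% of all genes were called. DESeq2 was not run for regions. With water libraries only, the calls for VBT and NAc fell from 8 to 4. Those for PrL and NAc rose from 0 to 3 when VBT female water 2 and NAc male water 5 were left out. With the library number within sex and treatment as a block, 8 further comparisons were called and none was lost. PrL and NAc then differed in 2 of 9 genes, Isg15 (0.27, SE 0.11, edgeR adjusted p = 0.0220) and Ifit3 (0.23, SE 0.10, edgeR adjusted p = 0.0315), and VTA and S1 in 5, with Irf7 (edgeR adjusted p = 0.0236) and Ifit3 (edgeR adjusted p = 0.0380) added. Among neighbours in the orders given above, the block also called Isg15 in S1 and PrL (edgeR adjusted p = 0.0373), Ifit3 in VBT and NAc (0.0482, adjusted by edgeR) and Usp18 in S1 and NAc (0.0494, adjusted by edgeR).

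These tests used trimmed-mean scaling, on which VTA stands lower than in plain CPM. The log2 difference in CPM exceeded the fitted one by 0.16 for VTA against VBT, by 0.12 against S1 and by 0.15 against PrL, and fell short of it by 0.10 for VBT against NAc. Irf7 and Isg15 were therefore higher in VTA than in VBT in CPM but lower on the fitted scale, by log2 differences of -0.08 (SE 0.12) and -0.06 (SE 0.13), neither called. Stat2 in S1 and VBT, Stat2 in NAc and PrL, and Oasl2 in NAc and PrL also changed order without being called. Markers of 2 cell types that respond to interferon did not share one order: the median summed level of 10 microglia markers was 291 CPM in VTA, 276 CPM in VBT, 391 CPM in S1, 366 CPM in PrL and 382 CPM in NAc. For 8 endothelial markers it was 416, 404, 367, 280 and 297 CPM in the same order of regions. Their part in the region differences was not tested.

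The 9 genes also varied together from library to library. For each library the deviation of a gene was taken as log2(CPM + 1) minus the mean of its group of region, sex and treatment, so that region, sex and treatment do not enter. Over the 98 libraries, Pearson's r between the deviations of 2 genes was above 0 for 36 of 36 pairs and had a median of 0.489, while the median r of these genes with any gene was 0.0596. These correlations describe libraries that share RNA, depth and preparation, and carry no p-value. Neither the deviations nor the later test of same-numbered libraries was adjusted for GC content. Ifit1 and Oasl2 had the highest r (0.716), and Isg15 and Stat2 the lowest (0.163). Stat2 stood apart with a median r of 0.316 with the other 8 genes, against 0.463 (Usp18) to 0.578 (Oasl2) for the rest. The median over the 36 pairs was 0.406 in VTA (n = 19), 0.534 in VBT (n = 20), 0.367 in S1 (n = 19), 0.449 in PrL (n = 20) and 0.641 in NAc (n = 20).

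**Figure D2:**
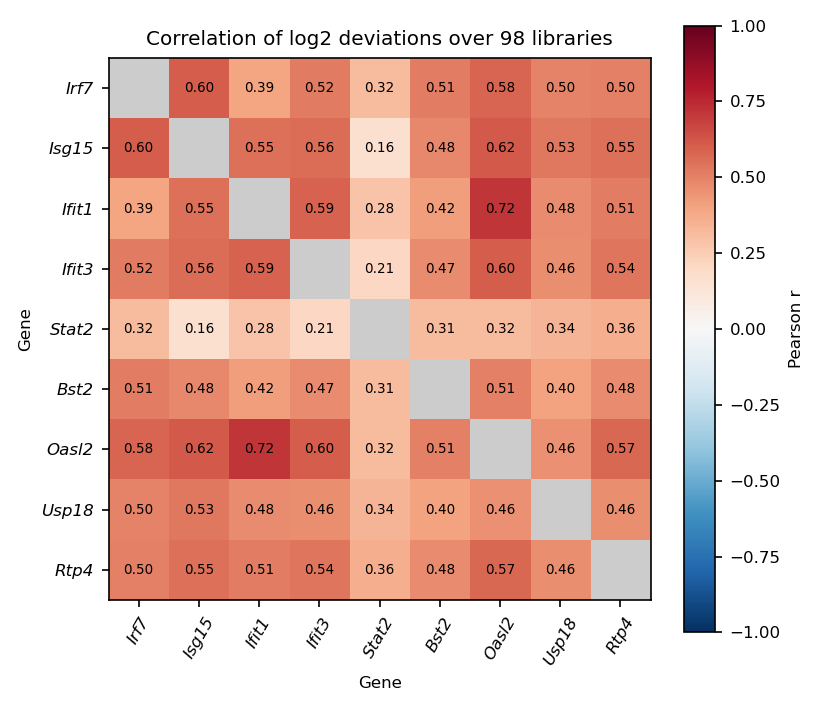
Pearson's r between the deviations of each pair of the 9 genes over 98 libraries, as a colour matrix. All 36 pairs are above 0, Ifit1 and Oasl2 are the closest at 0.716, and the column of Stat2 is palest.

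Single libraries weighed on these values. The library labelled NAc male water 5 had the highest level of 8 of the 9 genes in NAc, among them Irf7 at 4.25 CPM, Ifit3 at 10.9 CPM, Oasl2 at 8.01 CPM and Usp18 at 2.61 CPM. Only Stat2 peaked elsewhere, in NAc female water 3. Marker sums of NAc male water 5 were within the range of the other NAc libraries, with microglia at 340 CPM (NAc median 382), endothelium at 267 CPM (297), blood at 71.3 CPM (56.2) and other immune cells at 3.01 CPM (3.01). The rank correlation across genes of its difference from the mean NAc library with GC content was 0.468. That was the highest value in NAc, with NAc male fentanyl 5 next at 0.462. The part of base composition in the levels of NAc male water 5 was not tested. Without NAc male water 5, the median r in NAc was 0.466 in place of 0.641. VBT female water 2 was highest in VBT for 5 of the 9 genes, with Bst2 at 8.97 CPM against 3.53 CPM in the next VBT library. All 5 choroid plexus markers were also highest there, with a summed 4512 CPM against 651 CPM in the next library, and their part in its Bst2 level was not tested. Without both libraries the median over the 36 pairs was 0.413, and 36 of 36 pairs stayed above 0.

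The labels number the libraries 1 to 5 within each region, sex and treatment, and do not say that a number marks an animal. Whether libraries with the same sex, treatment and number deviated together in the 5 regions was tested for each gene, with an edgeR quasi-likelihood F-test of 16 coefficients for the number, given the 20 groups. Of 22326 genes, 771 were called (3.45%). Of the 9 interferon-stimulated genes, 6 were called. The median F was 3.38 over the 9 genes and 1.09 over all genes.

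**Figure D3:**
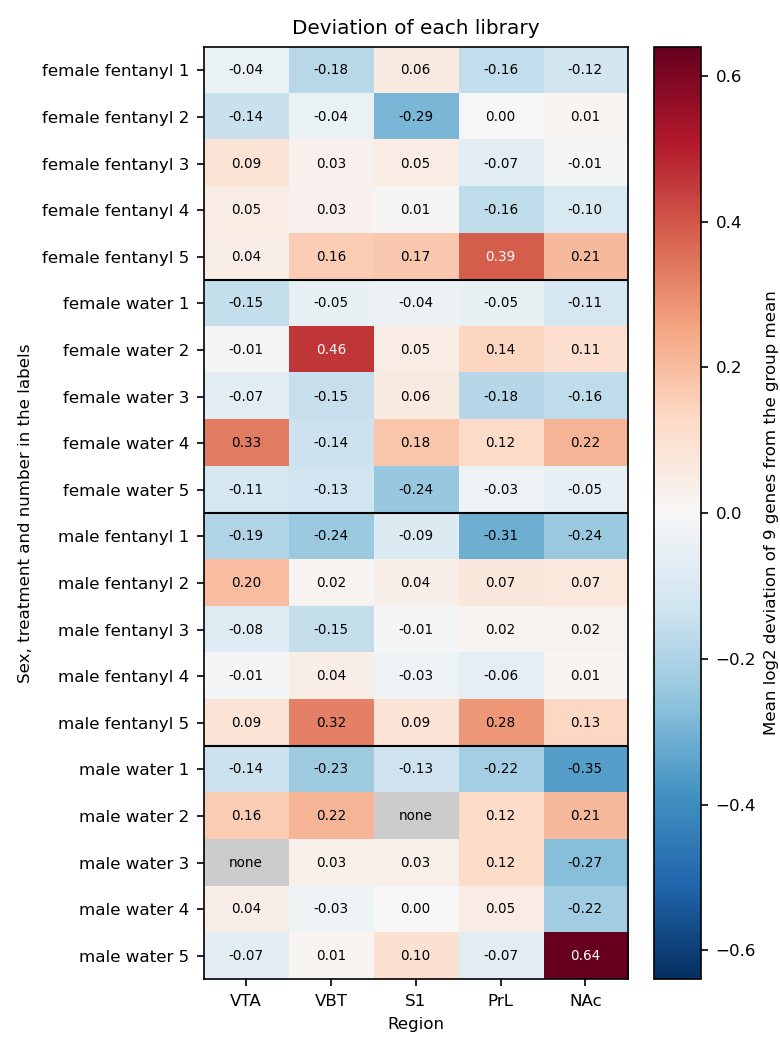
Mean deviation of the 9 genes (log2 of CPM + 1, minus the group mean; colour) for the 20 combinations of sex, treatment and number in each of the 5 regions, with the missing libraries in grey. Male water 1 and male fentanyl 1 are below 0 in 5 of 5 regions, and female fentanyl 5 and male fentanyl 5 above 0 in 5 of 5.

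Ifit3 had the largest F of the 9 genes. In the libraries of male fentanyl 1 it was at 8.08 CPM in VTA, 2.91 CPM in VBT, 4.78 CPM in S1, 2.84 CPM in PrL and 2.92 CPM in NAc. In those of male fentanyl 5 it was at 10.8 CPM in VTA, 7.98 CPM in VBT, 6.26 CPM in S1, 5.97 CPM in PrL and 6.64 CPM in NAc. Number 5 was thus higher than number 1 in each of the 5 regions, within one sex and treatment. These numbers had the highest and lowest mean deviation of the 9 genes, Ifit3 included, in male fentanyl. The F of Ifit3 was 4.14 (edgeR adjusted p = 0.00158).

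Rtp4 is shown for numbers 1 and 2 of the male water groups. They had the lowest and highest mean deviation of the 9 genes, Rtp4 included, in male water. In male water 1 it was at 2.15 CPM in VTA, 1.90 CPM in VBT, 1.71 CPM in S1, 0.933 CPM in PrL and 1.61 CPM in NAc, and in male water 2 at 2.47 CPM in VTA, 2.78 CPM in VBT, 1.77 CPM in PrL and 2.33 CPM in NAc. No S1 library carried that number. Male water 4 and 5 were above number 2 in VTA (2.55 and 2.50 CPM), PrL (2.19 and 1.91 CPM) and NAc (2.56 and 3.33 CPM). In VBT they were below it (2.50 and 2.40 CPM). The F of Rtp4 was 3.58 (edgeR adjusted p = 0.00683). Oasl2, the synthetase relative, was in male water 1 at 6.26 CPM in VTA, 2.83 CPM in VBT, 3.87 CPM in S1, 2.61 CPM in PrL and 2.48 CPM in NAc, and in male water 2 at 8.87 CPM in VTA, 5.64 CPM in VBT, 5.19 CPM in PrL and 5.00 CPM in NAc. For both genes male water 2 was the higher in each of the 4 regions that had both. Ifit3 went the other way for these numbers in 3 of 4 regions, at 6.55 CPM in VTA, 4.63 CPM in PrL and 4.35 CPM in NAc of male water 1 against 6.34, 3.76 and 4.11 CPM in male water 2, with VBT at 3.91 against 5.15 CPM. The F of Oasl2 was 3.52 (edgeR adjusted p = 0.00799).

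Irf7, the amplifying transcription factor, was split between male water 1 and 2 as Rtp4 and Oasl2 were. It was at 2.05 CPM in VTA, 1.90 CPM in VBT, 1.92 CPM in S1, 1.45 CPM in PrL and 1.77 CPM in NAc of male water 1, and at 3.07 CPM in VTA, 2.92 CPM in VBT, 3.10 CPM in PrL and 2.87 CPM in NAc of male water 2. Its F was 3.50 (edgeR adjusted p = 0.00844). Isg15, its target, had an F of 3.38 (edgeR adjusted p = 0.0117) and Ifit1 an F of 3.17 (edgeR adjusted p = 0.0193). The test was not passed by Stat2 (F 2.33, edgeR adjusted p = 0.133), Usp18 (F 1.84, edgeR adjusted p = 0.317) or Bst2 (F 1.36, edgeR adjusted p = 0.599).

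Averaged over the 9 genes and the regions, the deviation was highest in female fentanyl 5 (0.196) and male fentanyl 5 (0.182), both above 0 in 5 of 5 regions, and in male water 2 (0.177), above 0 in 4 of 4. It was lowest in male water 1 (-0.214) and male fentanyl 1 (-0.212), both below 0 in 5 of 5 regions. In male water 1, the number of the 9 genes above their group mean was 0 in VBT and NAc, 1 in VTA and 2 in S1 and PrL. In female fentanyl 5 it was 5 in VTA, 8 in VBT and 9 in each of S1, PrL and NAc.

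The calls rested on several regions and numbers. Without the PrL libraries, 0 of 9 genes were called by edgeR and 331 genes in all, and without VBT, 3 of 9 and 458. Leaving out VTA left 4 of 9 and 577 genes in all, leaving out NAc 4 and 505, and leaving out S1 5 and 460. Leaving out the libraries of 1 number at a time left 4 to 7 of 9, and 354 to 810 in all. It left 4 without male fentanyl 1 (354 in all), male water 1 (668) or male water 2 (702), and 7 without male fentanyl 2 (729), when Stat2 was also called (edgeR adjusted p = 0.0139). With the library VTA male water 3 kept, 0 of 9 genes and 96 in all were called.

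Region by region, the mean r of the deviations between 2 regions over the 10 pairs was 0.416 for Rtp4, 0.414 for Ifit3, 0.363 for Irf7, 0.351 for Isg15, 0.351 for Ifit1, 0.344 for Oasl2 and 0.305 for Stat2. For Usp18 it was 0.136 and for Bst2 0.0807. Over 17595 genes the median of this mean r was 0.0284, and 5% of genes lay below -0.104 and 5% above 0.260. A mean r as high as that of Rtp4 was reached by 1.22% of genes, as high as that of Stat2 by 3.24%, and as high as that of Bst2 by 32.0%. The pair VBT and PrL had the highest median r over the 9 genes (0.521, n = 20), and VBT and S1 the lowest (0.133, n = 19). Each pair of points here shares only a number in the labels.

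The rest of the pathway was described in the same test from lists by role. None of the 11 ligand genes, such as Ifnb1, passed the filter on low counts, and 0 of 6 receptor subunits and 0 of 5 inhibitors were called by edgeR. Of those 2 lists, no gene had an unadjusted p under 0.05, the smallest being 0.0539 for Ifnar1 and 0.0581 for Ptpn6, a phosphatase. Of 10 kinases and transcription factors 2 were called: Irf9, the DNA-binding partner of Stat2 (F 6.13, edgeR adjusted p = 9.4e-06), and Irf3, which switches on interferon genes (edgeR adjusted p = 0.0272). Of 12 sensors and adaptors tested, Ddx58, the RNA sensor RIG-I, was called (F 4.34, edgeR adjusted p = 0.000892). Of 61 further interferon-stimulated genes tested 9 were called, a share to set beside the 3.45% of all genes. They were Rsad2, Ifitm3, Sp100, Ifi44, Gbp3, Parp14, Oas1a, H2-K1 and Irgm2, with antiviral membrane, guanylate-binding and antigen-presenting proteins among them.

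The genes whose deviations followed the mean deviation of the 9 most closely over 98 libraries were Ifitm3 (r = 0.719), Lgals3bp (0.700), Parp14 (0.687), Gbp2 (0.667), Ddx58 (0.665), Gbp3 (0.665), Tap2 (0.642), Eif2ak2 (0.638), Iigp1 (0.634) and Parp12 (0.618). Of these 10, 7 stand on the list of further interferon-stimulated genes and Ddx58 on that of sensors. Ifitm3, which blocks entry of viruses from endosomes, averaged 6.51 ± 2.04 CPM over the libraries (SD, n = 98) and had an r between 0.448 (S1) and 0.868 (VBT) within regions. On the list of further interferon-stimulated genes, 23 of 53 tested in every region were among the 100 genes with the highest r, and the median r was 0.471, against 0.0799 over all 17586 genes. Without VBT female water 2 and NAc male water 5, 4 of the 10 genes stayed among the top 10: Ifitm3, Gbp3, Parp14 and Gbp2.

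Markers of some cell types varied along with the 9 genes too. Over the 98 libraries, r with the mean deviation of the 9 genes was 0.360 for the summed microglia markers, 0.362 for blood, 0.361 for meninges and fibroblasts, 0.353 for other immune cells, 0.287 for endothelium and -0.224 for neurons. Averages over each of the 20 combinations of sex, treatment and number gave 0.450 for microglia, 0.386 for blood and 0.366 for meninges and fibroblasts. For other immune cells r was then 0.372, for endothelium 0.416 and for neurons -0.282. In the test of same-numbered libraries, where 3.45% of all genes were called, 5 of 5 blood markers, 4 of 8 endothelial markers (Flt1, Slco1a4, Cldn5 and Kdr) and 1 of 6 VTA markers (Foxa2) were called. Of 10 microglia markers 0 were called by edgeR, with 2 (P2ry12 and Trem2) at an unadjusted p under 0.05. The part of these cells in the covariation was not tested.

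The last question was whether perinatal fentanyl changed the genes. Fentanyl was compared with water in each region by edgeR, for both sexes averaged, for females, for males and for the difference between the sexes. Calls were made for 2 of the 9 genes, both in VTA and both upward: Ifit1 with the sexes averaged and Ifit3 in males. Each was 1 of 9 genes in its contrast, where 23.1% and 22% of all genes were called. Neither was called with the offsets for GC content described below. In the other 4 regions, 0 of 9 genes were called in any contrast by edgeR or by DESeq2's Wald test. There edgeR called at most 1.03% of all genes.

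**Figure D4:**
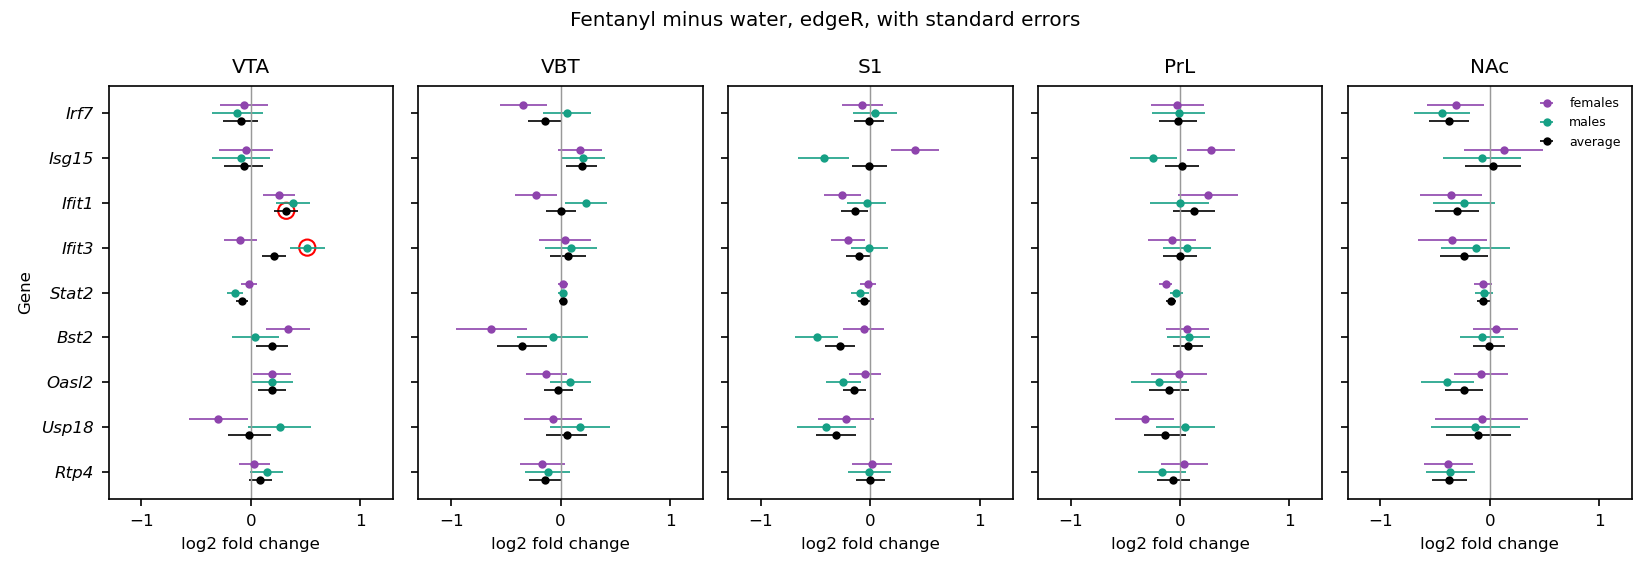
Log2 fold change of fentanyl over water with its SE for each gene (points, axis in log2 units) in the 5 regions, with females in purple, males in green and the average of the sexes in black. The 2 red circles, VTA Ifit1 in the average and VTA Ifit3 in males, mark adjusted p under 0.05, and most NAc points lie below 0.

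Ifit1 in VTA was at 4.48, 4.22, 6.30, 4.75 and 5.38 CPM in female fentanyl libraries 1 to 5 and at 4.04, 4.41, 4.12, 4.81 and 3.40 CPM in female water libraries. In males it was at 3.56, 4.94, 3.72, 3.75 and 4.52 CPM with fentanyl and at 2.40, 4.11, 3.42 and 2.89 CPM with water (numbers 1, 2, 4 and 5). The groups overlapped in both sexes, with the fentanyl mean above the water mean in each. Means were 5.03 ± 0.833 against 4.16 ± 0.518 CPM in females (SD, n = 5 each) and 4.10 ± 0.600 (n = 5) against 3.20 ± 0.734 CPM (n = 4) in males. The averaged log2 fold change was 0.32 (SE 0.11, edgeR adjusted p = 0.0352), where 23.1% of all genes were called in that contrast.

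Ifit3 in VTA was at 8.08, 8.16, 7.33, 7.99 and 10.8 CPM in male fentanyl libraries 1 to 5 and at 6.55, 6.34, 5.97 and 5.41 CPM in male water libraries 1, 2, 4 and 5. Every fentanyl library was above every water library. Such separation held for 22.4% of all genes in VTA males. The means were 8.48 ± 1.36 (SD, n = 5) and 6.07 ± 0.499 CPM (n = 4), a log2 fold change of 0.52 (SE 0.16, edgeR adjusted p = 0.0284), and 22% of all genes were called in that contrast. In females Ifit3 was at 6.16, 6.36, 8.02, 8.48 and 9.70 CPM with fentanyl and 7.42, 8.79, 5.98, 11.1 and 7.65 CPM with water, groups that overlapped throughout (log2 fold change -0.10, SE 0.15, edgeR adjusted p = 0.818). The difference between the sexes was 0.61 (SE 0.22, edgeR adjusted p = 0.420), so the effect was not shown to differ between them.

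Both VTA calls were made beside a shift in base composition between the groups. The rank correlation across genes of a library's deviation with GC content was 0.660 ± 0.051 in VTA male water (SD, n = 4) and -0.382 ± 0.207 in VTA male fentanyl (n = 5). In females it was 0.068 ± 0.546 with water and -0.356 ± 0.249 with fentanyl (n = 5 each), and those groups overlapped. The female water libraries were split, with numbers 1, 2 and 3 at -0.377, -0.342 and -0.267 and numbers 4 and 5 at 0.727 and 0.597. The male water libraries ran from 0.594 to 0.714. With offsets for GC content, chosen after seeing the data, the log2 fold change was 0.18 for Ifit1 (edgeR adjusted p = 0.416) and 0.43 for Ifit3 (edgeR adjusted p = 0.159), and neither was called. The count of all genes called fell to 951 and 854 from 4580 and 4355. Without 1 library at a time the log2 fold change of Ifit1 ran from 0.27 to 0.40 (edgeR adjusted p from 0.0117 to 0.0855). Its call was lost without female fentanyl 3 or 5, female water 5, male fentanyl 2 or 5, or male water 1, 4 or 5. It was also lost with the library number as a replicate block (edgeR adjusted p = 0.0501) and with no filter on low counts (edgeR adjusted p = 0.0729). The log2 fold change of Ifit3 ran from 0.43 to 0.57 (edgeR adjusted p from 0.0167 to 0.0892), and its call was lost without male fentanyl 5, male water 4 or male water 5. Summed microglia markers in VTA ran from 235 to 310 CPM in male fentanyl and from 277 to 298 CPM in male water, and from 294 to 328 CPM in female fentanyl and from 245 to 304 CPM in female water. Their part in the calls was not tested.

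In VBT the gene with the smallest p in the average was Bst2, the tetherin. It was at 1.70, 2.24, 3.08, 2.61 and 2.19 CPM in female fentanyl and 2.32, 8.97, 2.93, 2.10 and 2.11 CPM in female water libraries. In males it was at 2.35, 2.69, 2.51, 1.87 and 3.53 CPM with fentanyl and 1.96, 2.86, 2.99, 2.91 and 2.78 CPM with water. One water library lay far above all others and the groups overlapped in both sexes. The averaged log2 fold change was -0.35 (SE 0.23, edgeR adjusted p = 0.704), and -0.05 (edgeR adjusted p = 0.941) without VBT female water 2.

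In S1 Bst2 was again the gene with the smallest p in the average. Male fentanyl libraries were at 2.21, 2.84, 2.40, 2.44 and 1.69 CPM and male water libraries 1, 3, 4 and 5 at 3.31, 3.29, 3.23 and 3.34 CPM. Every male water library was above every male fentanyl library, as held for 1.72% of all genes in S1 males. The male log2 fold change was -0.49 (SE 0.20, unadjusted p = 0.0218 and edgeR adjusted p = 0.668). Females were at 3.38, 2.10, 2.87, 3.37 and 4.05 CPM with fentanyl and 3.97, 3.08, 3.96, 3.50 and 1.82 CPM with water, and overlapped. The average was -0.28 (SE 0.14, edgeR adjusted p = 0.330).

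In PrL the gene with the smallest p in the average was Stat2, at 24.3, 24.4, 25.1, 27.1 and 26.7 CPM in female fentanyl and 25.8, 29.7, 28.9, 28.1 and 30.3 CPM in female water libraries. Males were at 22.7, 26.2, 29.5, 27.4 and 26.5 CPM with fentanyl and 26.0, 28.2, 26.7, 28.3 and 28.1 CPM with water. The groups overlapped in both sexes. The average was -0.08 (SE 0.04, edgeR adjusted p = 0.297).

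In NAc the gene with the smallest p in the average was Rtp4, at 1.36, 1.29, 1.52, 1.14 and 2.02 CPM in female fentanyl and 1.61, 1.89, 1.68, 2.36 and 1.94 CPM in female water libraries. In males it was at 1.29, 2.05, 1.71, 1.32 and 2.26 CPM with fentanyl and 1.61, 2.33, 1.49, 2.56 and 3.33 CPM with water. The groups overlapped in both sexes, with the lower mean under fentanyl in each. The average was -0.37 (SE 0.16, unadjusted p = 0.0294 and edgeR adjusted p = 0.361), and -0.29 (edgeR adjusted p = 0.431) without NAc male water 5.

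Counts over the 9 genes are read against all genes. With the sexes averaged, 1 of 9 was called in VTA (23.1% of all genes) and 0 of 9 in VBT (0%), S1 (1.03%), PrL (0.697%) and NAc (0%). An unadjusted p under 0.05 was reached by 1 of 9 in VTA (35.4%) and in NAc (12%), and by 0 in VBT (8.49%), S1 (15.8%) and PrL (19.1%). In females no gene was called in any region, against 0% of all genes in VTA, VBT and NAc, 0.142% in S1 and 0.021% in PrL, and the unadjusted threshold was reached by 0 of 9 in VTA (12.7%), VBT (7.86%), S1 (13.9%) and NAc (9.03%) and by 1 of 9, Stat2, in PrL (9.53%). In males 1 of 9 was called in VTA (22%) and 0 in VBT, S1 and PrL (0% each) and NAc (0.662%). Unadjusted, it was 2 of 9 in VTA (34.7%), 1 in S1 (7.15%) and 0 in VBT (8.7%), PrL (12%) and NAc (17.6%). For the difference between the sexes, 0 of 9 and 0% of all genes were called in every region, and the unadjusted threshold was reached by 1 of 9 in VTA (11.4%; Ifit3), 1 in S1 (4.14%; Isg15) and 0 in VBT (8.03%), PrL (2.59%) and NAc (15.2%). DESeq2's Wald test called 1 of 9 in the VTA average, 1 of 9 in VTA males and 0 in the other 18 comparisons.

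Short of single calls, the median log2 fold change of the 9 genes in the average was highest in VTA (0.09), followed by VBT (0.0038), PrL (-0.02), S1 (-0.11) and NAc (-0.23). In S1 and in NAc 8 of 9 values were below 0. The NAc value moved with 1 library: without NAc male water 5 the median was -0.05 and 6 of 9 values were below 0. In NAc males alone the median was -0.13 with 9 of 9 below 0, and -0.02 with 5 of 9 below 0 without that library. In VBT females it was -0.13, and 0.01 without VBT female water 2. These counts are not tests, since the 9 genes vary together from library to library.

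Among the other genes of the pathway, calls for fentanyl against water were made in VTA only. With the sexes averaged, 8 of 59 further interferon-stimulated genes rose and 5 fell there, in all 22.0% of the list beside 23.1% of all genes, so the list was called about as often as any gene. With GC offsets 0 of these 59 were called by edgeR, with 10 at an unadjusted p under 0.05. Gbp2, a guanylate-binding protein among the 10 genes closest to the 9, had a log2 fold change of 0.40 (SE 0.14, edgeR adjusted p = 0.0379) and, with the offsets, of 0.33 (edgeR adjusted p = 0.197). Parp14, another of those 10, was at 0.41 (SE 0.12, edgeR adjusted p = 0.0169) and, with the offsets, at 0.33 (edgeR adjusted p = 0.140). Gbp3, also of those 10, was at 0.25 (SE 0.08, edgeR adjusted p = 0.0343) and, with the offsets, at 0.16 (edgeR adjusted p = 0.350). Tap2, a peptide transporter of antigen presentation and another of the 10, was at -0.23 (SE 0.07, edgeR adjusted p = 0.0251) and, with the offsets, at -0.04 (edgeR adjusted p = 0.807). The values of the 8 that rose ran from 0.23 (B2m) to 0.61 (Ifi203), and those of the 5 that fell from -0.33 (Ifi35) to -0.22 (Shisa5).

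Of 12 sensors and adaptors 3 (25%) were called upward, beside 23.1% of all genes. One of them, Tlr3, a receptor for double-stranded RNA, was the single gene of the lists that was called both with and without GC offsets in the sex-averaged VTA contrast: it rose by 0.49 (SE 0.09, edgeR adjusted p = 0.00133), and by 0.30 with the offsets (SE 0.08, edgeR adjusted p = 0.0297). Of 10 kinases and transcription factors, Jak1 and Jak2 were called upward and Irf3 and Tyk2 downward (40% of the list), and 0 of 10 with the offsets, with 3 at an unadjusted p under 0.05. The value of Irf3 was -0.26 (SE 0.07, edgeR adjusted p = 0.0130) and, with the offsets, -0.08 (edgeR adjusted p = 0.480). Of 5 inhibitors, Pias1 was called upward and Socs1, which blocks Jak kinases, downward (40% of a list of 5), and neither with the offsets. Socs1 was at -0.91 (SE 0.23, edgeR adjusted p = 0.00863) and, with the offsets, at -0.67 (edgeR adjusted p = 0.0888). None of 6 receptors was called by edgeR, with 1 of 6 at an unadjusted p under 0.05. In VTA males alone, where 22% of all genes were called, 3 of 59 further interferon-stimulated genes rose and 4 fell. Of the sensors and adaptors, Tbk1 (0.31) and Tlr3 (0.52) rose in males, as did the kinases Jak1 (0.28) and Jak2 (0.31) and the inhibitor Pias1 (0.26), and Irf3 fell (-0.40). None of 6 receptors was called there by edgeR, with 1 of 6 at an unadjusted p under 0.05. The male values with GC offsets are not given.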

How the data were processed

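RNA from tissue punches was extracted with Trizol and a MicroElute kit with DNase, and libraries were made from 10 ng with SMART-Seq v4, per the labels' protocols. The authors deposited, per library, raw read counts per Ensembl gene over exons; HTSeq and GRCm38 are named in the submitters' processing notes, and the aligner is not given in the sources used here. The 5 lines not assigned to a gene stayed out of totals. GENCODE release 21 supplied symbols for 55154 of 55335 identifiers. The 9 genes and all lists were chosen with earlier results of these data known. Of the 9, group values and fold changes are given, per region, for the gene with the smallest p in the sex-averaged contrast and for every called one. The 10 genes most like the 9 are named with their correlation.

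CPM is the count per 1000000 counts assigned to genes. Counts were tested with edgeR 4.0.16 (TMM scaling, filterByExpr, robust quasi-likelihood F-tests) in R 4.3.3: each region with its 4 groups of sex and treatment, all 98 libraries for regions, and all 98 for same-numbered libraries, with Benjamini-Hochberg adjustment over all genes tested and a threshold of 0.05. Deviations used a pseudocount of 1 CPM. Alternatives were DESeq2 1.42.0, other scaling, no filter, a replicate block, left-out libraries and GC offsets. Intervals and limits cover counting error only.

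The markers and further pathway genes were lists by cell type or role. The name Mb21d1 was not matched. Promoters of Usp18 and Rtp4 were not used here.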

Additional observations from a re-analysis of the deposited data

Results flagged for a closer look

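In groups of 4 or 5 libraries, 18 of 180 combinations of gene and group had a highest or lowest library that lay farther from its nearest neighbour than Dixon's 95% criterion allows, where chance alone gives about 1 in 20. In 14 of them the highest library was the distant one, and in 4 the lowest. Values are CPM, with the nearest library of the group after each.

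Female fentanyl 5 stood above its group for Ifit1 in PrL (4.82, next 2.47) and in NAc (2.85, next 1.81) and for Ifit3 in PrL (8.60, next 4.71). Male fentanyl 5 stood above its group for Ifit1 in VBT (4.01, next 2.71) and Ifit3 in VTA (10.8, next 8.16). The last of these lies in the comparison that was called for Ifit3. Female water 4 was the distant library in VTA for Isg15 (3.59, next 1.86) and Usp18 (2.39, next 1.60). The correlation of that library with GC content was 0.727, the highest in VTA.

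NAc male water 5 was distant for Ifit3 (10.9, next 4.35), and VBT male water 2 for Usp18 (1.83, next 0.979). VBT female water 2, which held choroid plexus transcripts, was distant for Bst2 (8.97, next 2.93) and Oasl2 (6.86, next 4.83). For Bst2, VTA male fentanyl 2 was high (4.91, next 2.93) and VBT male water 1 low (1.96, next 2.78). S1 female fentanyl 2 was low for both Ifit3 (4.73, next 6.35) and Oasl2 (3.34, next 4.71). Stat2 was high in VTA female fentanyl 3 (32.8, next 30.5) and VTA male water 5 (34.8, next 31.9) and low in NAc male fentanyl 2 (20.7, next 26.6).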

How the results depend on the processing

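No called value changed direction under the settings run. Outside the removal of single libraries, 202 main values of comparisons stayed close and 22 moved. The further values followed were, for each of the 9 genes, 1 pair of regions, the test of same-numbered libraries, the mean correlation between regions and any fentanyl value given in full, together with the counts called over all genes and the overlap of the 10 genes most like the 9. Of these, 422 stayed close, 32 moved, 34 lost their call and 1 gained one; the other pairs of regions, in which the replicate block added calls, are not among them. In the VTA average, 1 of 9 genes was called; 0 were called with no filter on low counts, with a replicate block (Ifit1 adjusted p = 0.0501 by edgeR), with VTA male water 3 kept or with GC offsets, and 0 to 1 without single libraries. In VTA males, 1 was called; 0 were called with VTA male water 3 kept or with GC offsets, and 0 to 2 without single libraries. For pairs of regions, calls went from 0 to 2 (PrL and NAc) and from 3 to 5 (VTA and S1) with the replicate block. Calls for PrL and NAc went to 3 without VBT female water 2 and NAc male water 5, and for VBT and NAc from 8 to 4 with water libraries only. With VTA male water 3 kept, S1 and PrL had 3 calls, VBT and S1 1, and VTA and S1 1. In the test of same-numbered libraries, all genes called went from 771 to 96 with VTA male water 3 kept, 458 without VBT, 460 without S1, 331 without PrL, 505 without NAc and 354 without male fentanyl 1. Of the 9 genes, 6 were called, but 0 with VTA male water 3 kept, 3 without VBT and 0 without PrL. The cause of these shifts was not tested.

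The numbers do not pair the libraries by any statement in the labels, and the correlations of same-numbered fentanyl and water libraries were not all above 0.1, so the block shares a number only. Between regions, a library profile correlated best with its own number in 162 of 384 pairs of a library and another region (42.2%). The median correlation was 0.048 with the same number and -0.013 with others. Usp18, with a median count of 37, and Isg15, with 61, are the genes most limited by depth.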
